A study of Mus musculus with 24 samples.

Results

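Gene expression was compared between day 2.5 and day 3 of a differentiation of mouse embryonic stem cells (mESCs) to neuromesodermal progenitors (NMPs), in lines heterozygous for Smchd1. The members were all poly(A) RNA libraries labelled het at these 2 days, which was 6 of the 24 libraries of the series, 3 at each day. The same step in the wild-type lines (6 libraries) served as a comparison that shares no library with it. The lines were male and each was derived from its own blastocyst, from crosses of a Castaneus female with wild-type Smchd1 and a male on the C57BL/6 background that carried a deleted and a floxed Smchd1 allele and an MMTV-Cre transgene. The het lines were Smchd1[del/+] and lacked the copy from the father. The wt lines were Smchd1[fl/+], so both genotypes had an intact maternal allele and an F1 hybrid genome. In all lines, bFGF was given from day 0 and CHIR99021, an inhibitor of the kinase GSK3 that activates Wnt signalling, was added on day 2. Day 2.5 and day 3 were therefore 12 and 24 h after the start of Wnt activation, and the comparison asked what changed in the later 12 h. The replicate is the line, and a line gave 1 library a day.

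NMPs are cells of the caudal epiblast that give rise to spinal cord and to the paraxial mesoderm of the trunk, and they hold the mesodermal factor T together with the neural factor Sox2. Wnt signalling acts by stabilising beta-catenin, which binds TCF/LEF factors at target genes. Many of these targets encode inhibitors of the pathway itself. In the embryo, Wnt and FGF signals keep caudal progenitors and drive part of them into presomitic mesoderm, while Cdx factors come on and Hox genes are activated in order along each of their clusters.

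The 6 libraries held 18.2 to 20.7 M counts, so that 3 counts, taken as the smallest level a library could show, corresponded to 0.145 to 0.165 CPM, the count per 1 M counts of the library. Within a day, log2 CPM correlated at 0.980 to 0.985 between lines across genes. Smchd1 (chromosome 17, 71344489 to 71475343 in GRCm38), a chromatin protein of gene silencing and the deleted gene, had 93.3, 87.5 and 89.2 CPM at day 2.5 and 108, 106 and 104 CPM at day 3 in lines 1, 2 and 3 (log2 fold change 0.20, SE 0.08, adjusted p 0.0691). The wt libraries held 122 to 153 CPM at day 2.5 and 166 to 208 CPM at day 3, above every het library of the same day. With library totals as the only scaling, the het step's adjusted p was 0.0375. Levels below are CPM after TMM scaling, edgeR's correction for library composition, in the order of lines 1, 2 and 3. Adjusted p values are from edgeR's quasi-likelihood test over all genes, with Benjamini-Hochberg adjustment, and a gene is said to rise, fall or be called at an adjusted p under 0.05. In bulk RNA, fewer cells of a type and less RNA per cell cannot be told apart.

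The later 12 h of Wnt activation moved a large part of the transcriptome, mostly by small amounts. Of 15801 genes tested, 4710 were called (29.8%), of which 2181 rose (13.8%) and 2529 fell (16.0%). The median size of a called change was 0.56 on the log2 scale. A change of 2-fold or more was reached by 459 of the rising and 463 of the falling genes, and of 4-fold or more by 97 and 91. When the test asked for a change of over 1.5-fold (edgeR glmTreat), 402 genes (2.54%) passed. Libraries of the 2 days did not overlap for 44.6% of all genes tested and for 97.3% of the called genes. The 3 lines moved in the same direction for 99.4% of the called genes and for 59.6% of all genes tested. Genes are called on this same difference, so both shares among called genes are partly set by the call. The lines' own changes correlated at 0.67 to 0.75 across the 13026 genes whose mean count reached 50 on either day. Without day 3 of line 3, 3014 genes were called. On total-count scaling, 51.4% of the called genes were higher, compared with 46.3% on TMM scaling.

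The largest rises belonged mainly to genes outside the mesodermal and Wnt lists, with Rspo3 and Msgn1 as the exceptions. They were ranked among protein-coding genes whose days did not overlap and whose day 3 counts averaged 50 or more. Rspo3 (chromosome 10, 29452416 to 29535867), a secreted R-spondin that raises the response of cells to Wnt, had 0.197, 0.575 and 0.789 CPM at day 2.5 and 41.2, 8.93 and 22.5 CPM at day 3 (log2 fold change 5.49, SE 0.58, adjusted p 0.000118). Msgn1 (chromosome 12, 11208360 to 11208972), a helix-loop-helix factor of presomitic mesoderm, had 0.197, 0.105 and 0.148 CPM at day 2.5 and 13.3, 2.54 and 5.77 CPM at day 3, from counts of 4, 2 and 3 to 259, 54 and 117 (adjusted p 0.000249). Its fold is not given, since the day 2.5 counts were near the floor of 3. Both genes had at most 16 counts in any line at day 2.5 and rose in all lines, with line 1 highest and line 2 lowest at day 3. The log2 fold change of Rspo3 was 4.87 without day 3 of line 1.

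Arg1, the arginase that splits arginine into ornithine and urea, had 1.52, 1.20 and 1.04 CPM at day 2.5 and 59.5, 20.2 and 36.01 CPM at day 3 (log2 fold change 4.90, SE 0.38, adjusted p 3.79e-05). Fabp7, a fatty acid binding protein of neural progenitors, had 0.540, 0.366 and 0.395 CPM at day 2.5 and 19.4, 6.39 and 14.2 CPM at day 3 (log2 fold change 4.88, SE 0.44, adjusted p 5.29e-05). The apelin receptor gene Aplnr had 1.38, 0.262 and 0.888 CPM at day 2.5 and 42.3, 4.80 and 18.4 CPM at day 3 (log2 fold change 4.63, SE 0.72, adjusted p 0.000850). In these 3 genes, line 1 was highest and line 2 lowest at day 3. The log2 fold change of Aplnr was 3.73 without day 3 of line 1. Slit2, a guidance ligand, rose from 0.884, 0.837 and 1.38 to 14.4, 4.80 and 5.87 CPM, and the vasopressin receptor gene Avpr1b from 0.884, 0.105 and 0.296 to 10.1, 1.27 and 5.13 CPM. The remaining 3 of the 10 largest rises by this rule were Rhbdl3, a rhomboid-family gene (log2 fold change 3.74, or 4.62 without day 2.5 of line 3), and the guanylate-binding protein genes Gbp3 (3.37) and Gbp7 (2.96), members of a multigene family whose reads may be split between copies.

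By the size of the adjusted p, the leading rising genes were Usp11, Arl4c, Igf1r, Arg1 and Tapbp. The deubiquitinase gene Usp11 had 37.8, 43.9 and 42.8 CPM at day 2.5 and 107, 107 and 105 CPM at day 3 (log2 fold change 1.32, SE 0.09, adjusted p 1.42e-05). Arl4c, a small GTPase, had 67.2, 52.5 and 65.3 CPM at day 2.5 and 170.4, 187 and 179 CPM at day 3, and its level at day 2 was 123 ± 6.12 CPM (SD, n = 3). Igf1r, the receptor of insulin-like growth factor 1, had 22.99, 21.4 and 21.6 CPM at day 2.5 and 50.04, 51.9 and 54.1 CPM at day 3. Usp11, like Arl4c, had been higher on day 2, at 132 ± 13.3 CPM (SD, n = 3). Tapbp, which encodes the tapasin of antigen presentation and overlaps Zbtb22, had 13.5, 13.1 and 12.8 CPM at day 2.5 and 47.2, 34.8 and 44.4 CPM at day 3 (log2 fold change 1.65, SE 0.13, adjusted p 3.79e-05).

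**Figure D1:**
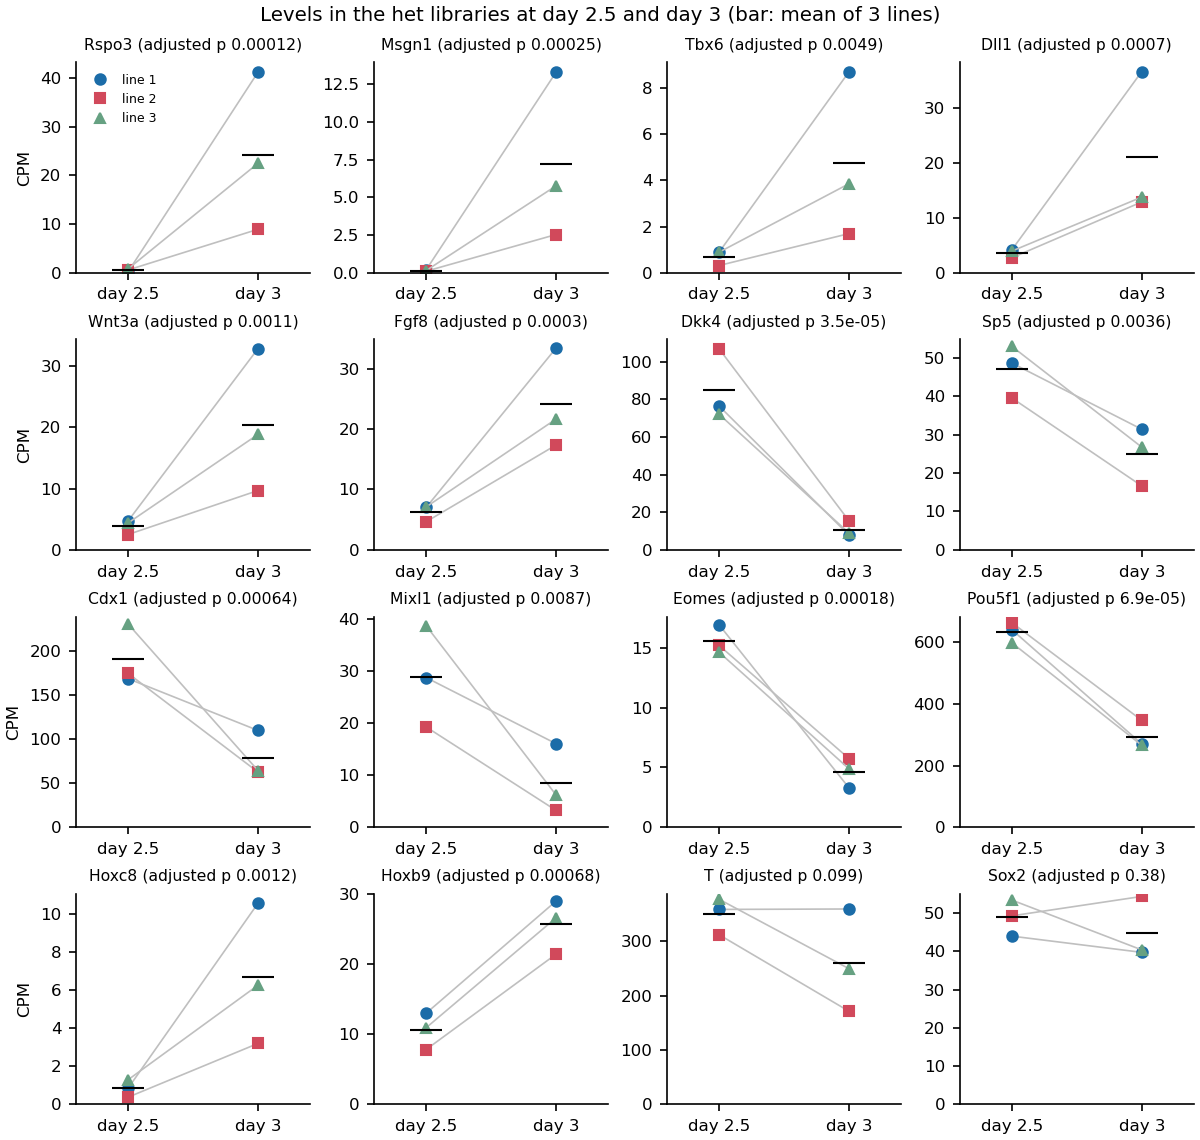
CPM of 16 genes in the 3 het lines at day 2.5 and day 3, with a line joining the libraries of each cell line and a bar at the mean. Rspo3, Msgn1, Tbx6 and Dll1 rose in every line with line 1 highest at day 3, Dkk4 and Eomes fell in every line, and T and Sox2 overlapped between the days.

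Called factors of presomitic and paraxial mesoderm mostly rose. Of 20 genes, 14 passed the filter on low counts, 6 rose and 1 fell, with a median log2 fold change of 0.92 beside -0.02 over all genes tested. The rising share was 42.9% beside 13.8% of all genes, and the falling share 7.14% beside 16.0%. Besides Rspo3 and Msgn1, the T-box factor Tbx6, which holds mesodermal against neural fate, had 0.884, 0.314 and 0.888 CPM at day 2.5 and 8.68, 1.69 and 3.85 CPM at day 3 (log2 fold change 2.71, SE 0.58, adjusted p 0.00492). The Notch ligand Dll1 had 4.17, 2.72 and 3.94 CPM at day 2.5 and 36.6, 12.9 and 13.8 CPM at day 3 (log2 fold change 2.50, SE 0.38, adjusted p 0.000700). Leaving out day 3 of line 1 gave a log2 fold change of 1.94 for Tbx6 and 1.84 for Dll1. Dll3, a further Notch ligand of the segmentation clock, had 7.12, 3.14 and 6.71 CPM at day 2.5 and 18.6, 9.36 and 11.9 CPM at day 3 (log2 fold change 1.19, SE 0.31, adjusted p 0.0137), and the forkhead factor Foxc1 had 1.18, 0.942 and 1.63 CPM at day 2.5 and 3.24, 2.82 and 2.52 CPM at day 3 (log2 fold change 1.15, SE 0.33, adjusted p 0.0215). The call of Foxc1 was lost without line 1 at either day and without line 2 at day 2.5 (adjusted p up to 0.0749). Dkk1, a secreted Wnt inhibitor of the list, fell from 10.7, 9.89 and 11.3 to 6.42, 4.23 and 6.56 CPM. Hes7, the oscillating repressor of the clock, had 0.639, 0.366 and 0.444 CPM at day 2.5 and 2.62, 0.235 and 0.839 CPM at day 3 and did not pass the test (adjusted p 0.202). Aldh1a2, which makes retinoic acid in somites, had 5.26, 3.56 and 5.03 CPM at day 2.5 and 10.6, 2.87 and 4.54 CPM at day 3 (adjusted p 0.557), with line 1 apart from the others at day 3. The later somite factors Meox1, Meox2, Foxc2, Ripply1, Ripply2 and Uncx had too few counts to be tested.

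The summed level of the mesodermal list was 38.3, 29.6 and 40.2 CPM at day 2.5 and 151, 56.1 and 84.3 CPM at day 3. All 3 lines rose, and line 1 ended highest and line 2 lowest. Over all 459 genes that rose 2-fold or more, line 1 held the highest day 3 level for 270 (58.8%), line 2 for 98 and line 3 for 91. Over the 463 genes that fell 2-fold or more, line 1 was lowest at day 3 for 221 (47.7%), line 2 for 112 and line 3 for 130. Line 1 thus lay further along the direction of change for many genes, and its part in single results was not tested beyond leaving it out. Without line 1 at day 3, 5 mesodermal genes rose and 1 fell.

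**Figure D2:**
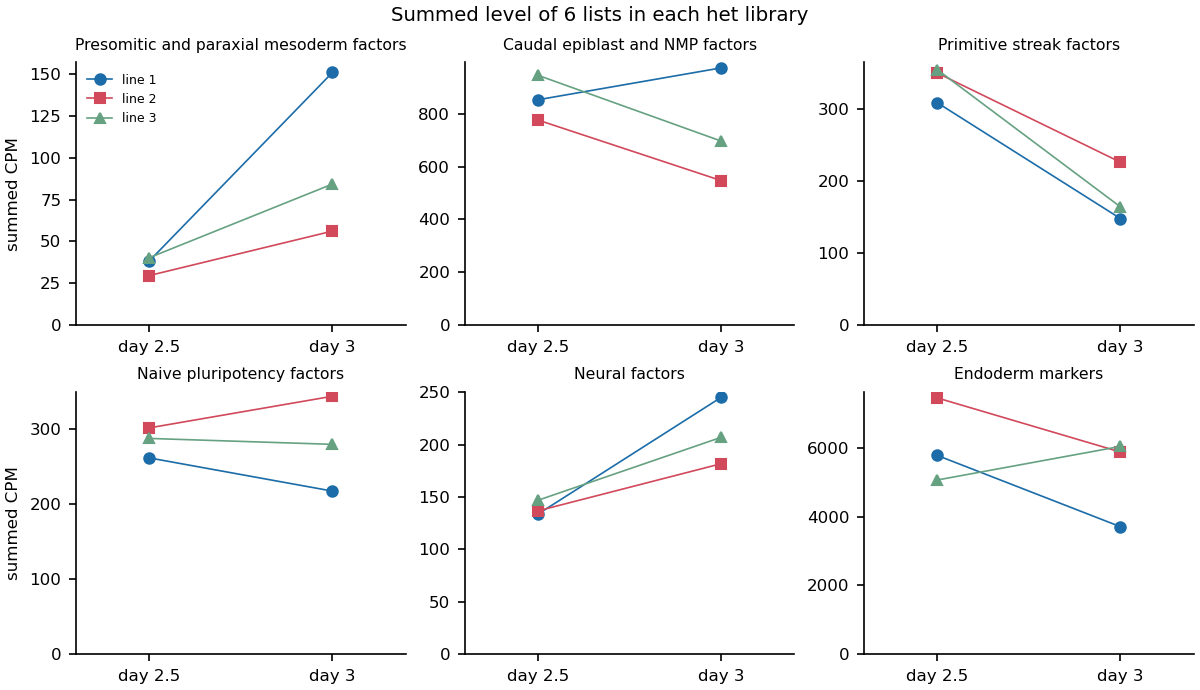
Summed CPM of 6 gene lists in each het library at day 2.5 and day 3, joined by cell line. Paraxial mesoderm factors rose in each line, primitive streak factors fell in each line, and caudal epiblast factors rose in line 1 and fell in lines 2 and 3.

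Called genes of the Notch pathway and the segmentation clock rose, among them Dll1 and Dll3, which both lists hold. Of 18 genes, 16 were tested, 7 rose and none fell, with a median log2 fold change of 0.63. The called share was 43.8%, all of it rising, beside 29.8% called and 13.8% rising of all genes. The receptor Notch1 had 13.1, 11.8 and 13.4 CPM at day 2.5 and 38.8, 26.8 and 33.8 CPM at day 3 (log2 fold change 1.34, SE 0.15, adjusted p 0.000135), and Notch3 had 40.9, 34.9 and 50.8 CPM at day 2.5 and 74.1, 70.3 and 65.8 CPM at day 3 (adjusted p 0.00195). Hes1, a repressor that Notch activates, rose from 19.3, 16.2 and 17.9 to 32.4, 29.4 and 37.4 CPM (adjusted p 0.000603). Jag1, a ligand of another class, had 13.7, 16.1 and 19.9 CPM at day 2.5 and 13.6, 11.3 and 12.3 CPM at day 3 and was not called (adjusted p 0.0546).

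The defining factors of NMPs were present at both days and were not called by the test used throughout, with its filter, all 6 libraries and no block. T had 359, 312 and 378 CPM at day 2.5 and 359.7, 171 and 249.7 CPM at day 3 (log2 fold change -0.46, SE 0.20, adjusted p 0.0995), Sox2 had 44.01, 49.3 and 53.5 CPM at day 2.5 and 39.8, 54.4 and 40.4 CPM at day 3 (log2 fold change -0.16, SE 0.13, adjusted p 0.383), and Nkx1-2, a homeobox factor of the caudal epiblast, had 174, 152 and 218 CPM at day 2.5 and 183, 75.4 and 105 CPM at day 3 (log2 fold change -0.62, SE 0.25, adjusted p 0.0788). The days overlapped in all 3. T and Nkx1-2 stood at 0.737 and 0.945 CPM at day 2, so both had come on in the first 12 h. With the cell line as a block in the fit, the fall of T (adjusted p 0.0158) and of Nkx1-2 (adjusted p 0.0137) passed the test. Without day 3 of line 1, T had a log2 fold change of -0.77 (adjusted p 0.00307) and Nkx1-2 of -1.05 (adjusted p 0.00108). With no filter beyond 1 count, both were called as well (adjusted p 0.000551 and 4.16e-06). That fit also gave far smaller adjusted p values to other genes, such as 4.34e-62 for Arg1. The likelihood ratio test called Nkx1-2 (0.0428) and not T (0.0656). T and Nkx1-2 were not called by DESeq2's Wald test (0.302 and 0.285) or in 1 fit of all 24 libraries (0.369 and 0.148). They were not called without day 3 of line 2 either (0.248 and 0.197). In both genes, line 1 was almost level and lines 2 and 3 fell.

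Over the whole list of caudal epiblast and NMP factors, 5 of 13 tested genes rose and 2 fell, with a median log2 fold change of 0.29. The rising share was 38.5% beside 13.8% of all genes, and the falling share of 15.4% was near the 16.0% of all genes. Without day 3 of line 1, 5 genes fell, and with the line as a block 4 did. Secreted signals were among the rises. Wnt3a had 4.72, 2.51 and 4.39 CPM at day 2.5 and 32.8, 9.69 and 18.8 CPM at day 3 (log2 fold change 2.36, SE 0.38, adjusted p 0.00109), Fgf8 had 7.02, 4.66 and 7.10 CPM at day 2.5 and 33.4, 17.4 and 21.6 CPM at day 3 (log2 fold change 1.91, SE 0.24, adjusted p 0.000296), and Fgf17 had 4.86, 4.71 and 4.88 CPM at day 2.5 and 14.2, 8.18 and 9.87 CPM at day 3 (log2 fold change 1.12, SE 0.22, adjusted p 0.00316). The nuclear factor Greb1 rose from 30.4, 24.7 and 28.7 to 68.3, 44.4 and 51.1 CPM. The homeobox gene Evx1 fell from 29.2, 25.6 and 31.02 to 14.5, 5.50 and 7.40 CPM (adjusted p 0.00103), and Sp5, a Wnt-induced zinc finger factor, from 48.6, 39.5 and 52.97 to 31.4, 16.6 and 26.7 CPM (adjusted p 0.00356).

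Of the 3 Cdx genes, homeobox factors that activate trunk Hox genes, Cdx1 fell from 169, 175 and 231 to 109.8, 62.5 and 64.3 CPM (log2 fold change -1.32, SE 0.19, adjusted p 0.000641). Cdx2 had 143, 128 and 161 CPM at day 2.5 and 138, 98.7 and 116 CPM at day 3 (adjusted p 0.0583, or 0.0225 with the line as a block). Cdx4 had 47.6, 41.6 and 59.03 CPM at day 2.5 and 86.6, 49.3 and 62.8 CPM at day 3, which overlapped between the days (adjusted p 0.130). At day 2 the means were 0.901, 2.42 and 0.766 CPM for Cdx1, Cdx2 and Cdx4. Falling Cdx genes numbered 2 without day 2.5 of line 2 or day 3 of line 1, and 1 Cdx gene rose without day 3 of line 2.

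Called primitive streak factors mostly fell. Of 14 genes, 11 were tested, 4 fell and 1 rose, with a median log2 fold change of -0.54. The falling share was 36.4% beside 16.0% of all genes, and the rising share 9.09% beside 13.8%. The homeobox factor Mixl1 had 28.7, 19.2 and 38.7 CPM at day 2.5 and 16.03, 3.20 and 6.17 CPM at day 3 (log2 fold change -1.82, SE 0.43, adjusted p 0.00872), and the T-box factor Eomes had 16.9, 15.2 and 14.7 CPM at day 2.5 and 3.29, 5.74 and 4.88 CPM at day 3 (log2 fold change -1.78, SE 0.20, adjusted p 0.000176). The log2 fold change of Mixl1 was -2.67 without day 3 of line 1. Mixl1 had been near 0.351 CPM at day 2, so its level was highest at day 2.5 of these 3 days. Tdgf1, the Nodal co-receptor, had 164, 207 and 196 CPM at day 2.5 and 58.2, 142 and 80.1 CPM at day 3 (adjusted p 0.00747). The exception was Lhx1, a LIM homeobox factor, with 0, 0 and 1 counts at day 2.5 and 19, 19 and 11 at day 3 (adjusted p 0.00207). The fold of Lhx1 is not given, since its day 2.5 counts were at or under the floor.

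Called Wnt ligands rose, while called genes of Wnt feedback mostly fell. Of 19 ligand genes, 14 were tested, 5 rose and none fell, with a median log2 fold change of 0.55. The called share of 35.7% was near the 29.8% of all genes, of which 13.8% rose. Without day 3 of line 1, 2 ligand genes fell. Wnt5a had 3.59, 2.88 and 3.80 CPM at day 2.5 and 22.96, 5.46 and 11.1 CPM at day 3 (log2 fold change 1.90, SE 0.41, adjusted p 0.00532), Wnt6 had 5.21, 3.45 and 5.28 CPM at day 2.5 and 16.3, 7.15 and 13.3 CPM at day 3 (log2 fold change 1.36, SE 0.29, adjusted p 0.00473), and Wnt9a had 1.52, 1.20 and 1.77 CPM at day 2.5 and 5.60, 5.36 and 4.59 CPM at day 3 (log2 fold change 1.75, SE 0.27, adjusted p 0.000778). Wnt10b went from 2, 1 and 0 counts at day 2.5 to 43, 25 and 58 at day 3 (adjusted p 0.000485). Wnt3, the ligand of the early streak, had 9.63, 7.43 and 9.52 CPM at day 2.5 and 5.24, 7.71 and 7.74 CPM at day 3 (adjusted p 0.168), and Wnt5b had 61.1, 59.6 and 73.4 CPM at day 2.5 and 70.02, 39.3 and 55.8 CPM at day 3 (adjusted p 0.249).

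Among Wnt feedback and target genes, 24 of 26 were tested, 10 fell and 3 rose, with a median log2 fold change of -0.29. The falling share was 41.7% beside 16.0% of all genes, and the rising share of 12.5% was near 13.8%. Dkk4, a secreted inhibitor of the Wnt co-receptor, fell furthest, with 76.6, 107 and 72.2 CPM at day 2.5 and 7.91, 15.5 and 8.98 CPM at day 3 (log2 fold change -3.01, SE 0.23, adjusted p 3.47e-05), after 0 CPM in all 3 lines at day 2. Axin2, a scaffold of the complex that degrades beta-catenin, had 124, 109 and 142 CPM at day 2.5 and 86.9, 56.7 and 62.1 CPM at day 3 (log2 fold change -0.90, SE 0.15, adjusted p 0.00110). Lef1, a transcription factor that binds beta-catenin, had 81.5, 78.8 and 100.2 CPM at day 2.5 and 62.7, 43.97 and 50.6 CPM at day 3 (log2 fold change -0.76, SE 0.13, adjusted p 0.00157), and Nkd1, an intracellular inhibitor, had 53.5, 44.7 and 58.5 CPM at day 2.5 and 33.5, 20.4 and 17.9 CPM at day 3 (log2 fold change -1.16, SE 0.20, adjusted p 0.00145). The proto-oncogene Myc fell from 26.97, 26.99 and 31.4 to 12.7, 10.5 and 14.2 CPM. None of these genes overlapped between the days, and Axin2 and Sp5 at day 3 were still above their day 2 means of 7.87 and 0 CPM.

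The 3 rising genes of this list were also inhibitors. Rnf43, a ubiquitin ligase that removes Wnt receptors, had 1.57, 2.72 and 2.17 CPM at day 2.5 and 9.20, 6.87 and 6.91 CPM at day 3 (log2 fold change 1.79, SE 0.26, adjusted p 0.000589). Sfrp1, which binds Wnt ligands, rose from 9.92, 9.05 and 13.7 to 20.5, 19.4 and 14.8 CPM (adjusted p 0.0148, and 0.0597 or 0.0593 without day 2.5 of line 1 or line 2). Kremen1, a receptor of Dkk proteins, rose from 16.8, 18.5 and 20.7 to 31.7, 26.7 and 26.4 CPM (adjusted p 0.00649). The lists' fold changes are shown side by side in the plot of the 29 gene lists.

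**Figure D3:**
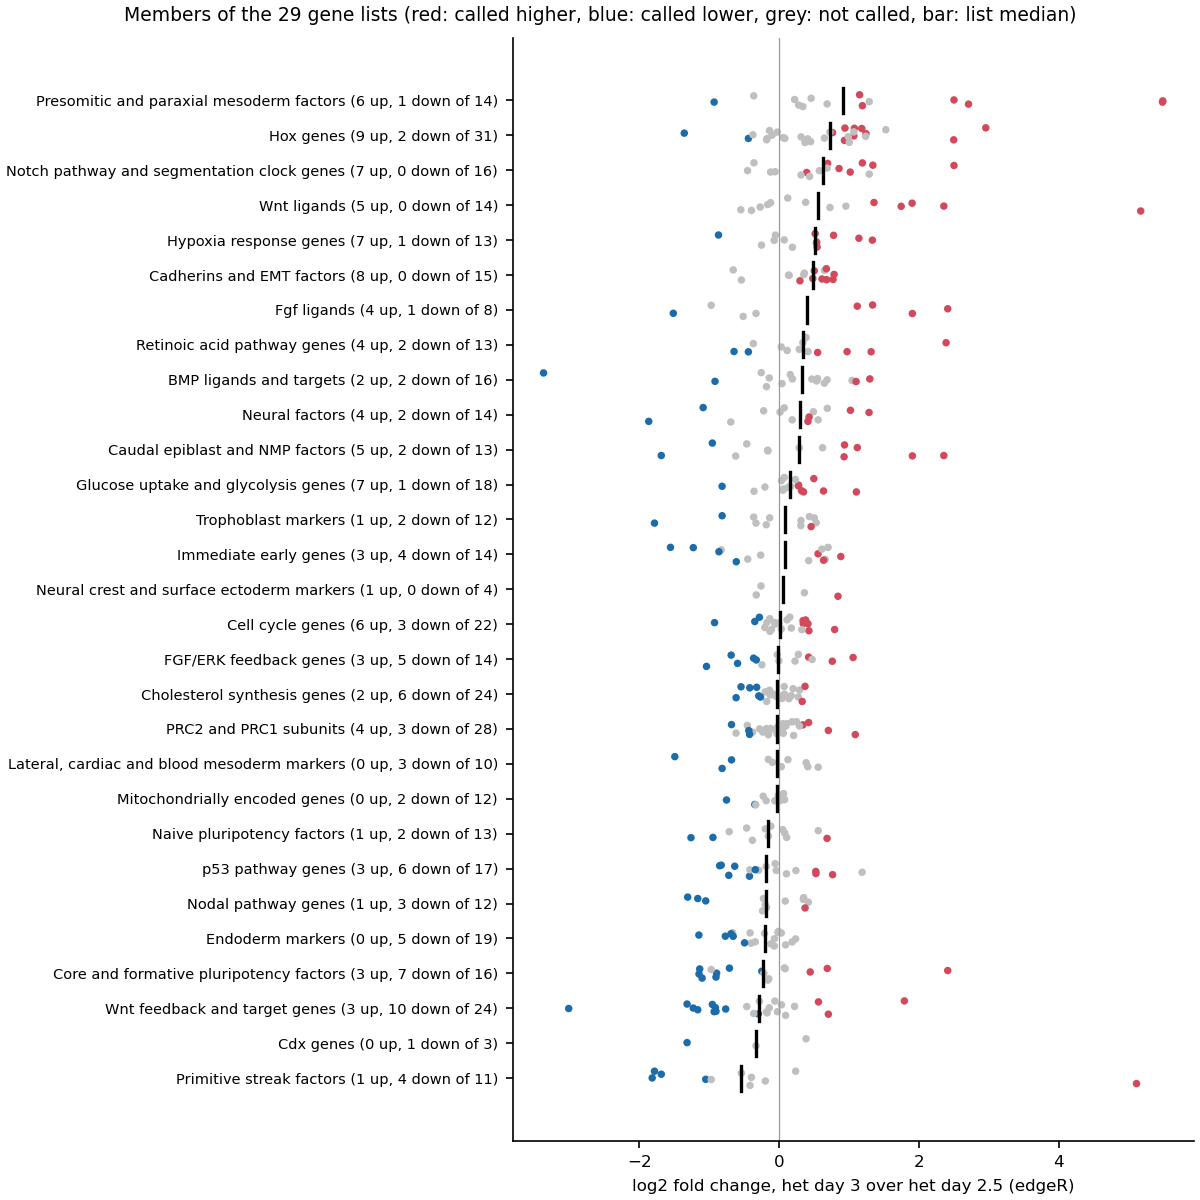
Log2 fold change of every tested member of 29 gene lists between het day 2.5 and day 3, ordered by the list median, with called genes in red or blue. Paraxial mesoderm factors (6 up and 1 down of 14) lie at the top and primitive streak factors (1 up and 4 down of 11) at the bottom.

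The 250 bases before the RefSeq start site were searched for the core of the TCF/LEF site, CTTTGA, on both strands. The letters occur in such a window for 15.8% of all 27025 genes with a window (GRCm38.p6). Windows were held for 14 of the 26 Wnt feedback and target genes, of which 5 had a match, and for 15 of the 20 mesodermal factors, of which 2 had one. In the called genes of this comparison the share was 11.1% of the rising and 13.9% of the falling genes with a window. Sp5, Dkk1 and Msgn1, each with 2 matches, are printed 5′ to 3′ on the gene's strand with the matches in capitals.
Sp5 (chr2:70474673-70474922, plus strand): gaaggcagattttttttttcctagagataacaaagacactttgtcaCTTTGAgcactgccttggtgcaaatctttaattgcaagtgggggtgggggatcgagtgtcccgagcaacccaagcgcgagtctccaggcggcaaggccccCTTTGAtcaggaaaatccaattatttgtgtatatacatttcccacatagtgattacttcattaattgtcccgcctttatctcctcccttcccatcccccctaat
Dkk1 (chr19:30549497-30549746, minus strand): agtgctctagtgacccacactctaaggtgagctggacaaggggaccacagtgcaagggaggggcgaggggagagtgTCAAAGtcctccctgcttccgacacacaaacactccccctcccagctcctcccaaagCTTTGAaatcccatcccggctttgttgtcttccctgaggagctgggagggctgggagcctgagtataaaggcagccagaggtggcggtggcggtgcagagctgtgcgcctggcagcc
Msgn1 (chr12:11208949-11209198, minus strand): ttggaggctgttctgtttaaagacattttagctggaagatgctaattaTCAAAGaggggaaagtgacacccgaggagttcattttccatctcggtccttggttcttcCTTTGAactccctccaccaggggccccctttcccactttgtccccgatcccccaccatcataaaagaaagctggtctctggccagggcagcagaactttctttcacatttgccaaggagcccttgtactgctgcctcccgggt
Sp5 and Dkk1, which fell, and Msgn1, which rose, thus held the same letters within 250 bases of the start. A match is a description of the window and shows no binding.

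Called FGF ligands mostly rose. Of 8 tested ligand genes, 4 rose and 1 fell, a called share of 62.5% beside 29.8% of all genes. Besides Fgf8 and Fgf17, Fgf4 had 3.10, 6.17 and 4.04 CPM at day 2.5 and 34.9, 20.4 and 17.2 CPM at day 3 (log2 fold change 2.41, SE 0.29, adjusted p 0.000229), after 169.9 ± 12.9 CPM at day 2 (SD, n = 3), so Fgf4 was low at day 2.5 and partly recovered. Fgf15 rose from 2.80, 1.36 and 2.32 to 9.04, 2.82 and 5.03 CPM (adjusted p 0.0280), a call that was lost without day 2.5 of line 2 (adjusted p 0.0951) or of line 3 (0.0510) and without day 3 of line 1 (0.136) or of line 3 (0.0599). The mesenchymal ligand Fgf10 fell from 2.80, 2.41 and 1.82 to 0.925, 0.705 and 0.888 CPM. Feedback genes of FGF and ERK signalling split, with 3 of 14 rising and 5 falling (3 falling without day 2.5 or day 3 of line 3). Their called share was 57.1% beside 29.8% of all genes. The phosphatase gene Dusp4 had 48.7, 48.1 and 54.05 CPM at day 2.5 and 114, 101 and 108 CPM at day 3 (log2 fold change 1.06, SE 0.09, adjusted p 4.01e-05), whereas the inhibitor gene Spry4 had 69.6, 73.8 and 84.2 CPM at day 2.5 and 33.7, 41.1 and 38.8 CPM at day 3 (log2 fold change -1.04, SE 0.11, adjusted p 9.34e-05) and Spry2 had 85.03, 75.95 and 83.05 CPM at day 2.5 and 49.6, 53.4 and 52.5 CPM at day 3 (adjusted p 0.000246). Spry1, of the same family, rose from 8.99, 7.69 and 10.4 to 14.1, 17.5 and 15.4 CPM (adjusted p 0.00502). Egr1, an immediate early gene of ERK signalling, fell from 29.3, 34.3 and 32.9 to 10.7, 9.97 and 13.02 CPM.

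Genes of retinoic acid handling changed in 6 of 13 cases, with 4 rises and 2 falls (2 rises without day 2.5 of line 1, and 1 fall without that library or day 3 of line 3). The called share was 46.2% beside 29.8% of all genes. Crabp2, which carries retinoic acid to the nucleus, had 12.8, 11.1 and 14.99 CPM at day 2.5 and 113, 40.6 and 55.3 CPM at day 3 (log2 fold change 2.39, SE 0.31, adjusted p 0.000300). Rarg, a retinoic acid receptor, rose from 52.1, 57.4 and 58.3 to 84.97, 92.3 and 74.7 CPM, while Stra6, a retinol importer, fell from 28.2, 36.4 and 29.9 to 23.3, 18.2 and 20.4 CPM. Cyp26a1, which degrades retinoic acid, had 13.4, 25.2 and 13.8 CPM at day 2.5 and 18.1, 21.6 and 25.8 CPM at day 3 (adjusted p 0.365).

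In the BMP list of 18 genes, 16 were tested, 2 rose and 2 fell. The called share of 25.0% was below that of all genes (29.8%). With the line as a block, 4 rose. The ligand Bmp7 had 10.7, 6.90 and 9.32 CPM at day 2.5 and 26.9, 20.3 and 20.7 CPM at day 3 (log2 fold change 1.30, SE 0.18, adjusted p 0.000481), and the homeobox gene Msx1, which BMP signals induce, rose from 5.06, 4.18 and 4.29 to 11.9, 7.43 and 10.5 CPM. The 2 falling genes encode secreted proteins that bind BMP and activin ligands. Follistatin (Fst) had 314, 307 and 339.6 CPM at day 2.5 and 218, 133 and 171 CPM at day 3 (log2 fold change -0.92, SE 0.14, adjusted p 0.000800), and Bmper had 11, 12.7 and 10.4 CPM at day 2.5 and 1.75, 0.611 and 1.04 CPM at day 3 (log2 fold change -3.37, SE 0.31, adjusted p 5.45e-05).

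The Hox genes, which encode homeobox factors of axial identity, were called higher mostly in their middle paralogue groups. Of 39 genes, 31 were tested, 9 rose and 2 fell, with a median log2 fold change of 0.73. In groups 6 to 9, 7 of 11 tested genes rose and none fell, and the median was 1.07. In groups 1 to 5, 2 of 15 rose and 1 fell (median 0.37), and in groups 10 to 13, none of 5 rose and 1 fell (median 0.98). The called share of all Hox genes was 35.5%, near the 29.8% of all genes, of which 13.8% rose. By cluster, 3 genes rose in HoxA, 3 in HoxB, 2 in HoxC and 1 in HoxD, and both falling genes lay in HoxA. Without a single library, 7 to 11 Hox genes rose and 0 to 3 fell. In 1 fit of all 24 libraries, 4 rose and none fell. With the line as a block, 12 rose and 2 fell.

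Hoxc8 had 0.835, 0.366 and 1.28 CPM at day 2.5 and 10.6, 3.20 and 6.26 CPM at day 3 (log2 fold change 2.96, SE 0.49, adjusted p 0.00117), and Hoxc6 had 0.639, 0.157 and 0.395 CPM at day 2.5 and 3.13, 1.88 and 2.02 CPM at day 3 (log2 fold change 2.50, SE 0.50, adjusted p 0.00354). Line 2 of Hoxc6 at day 2.5 lay at the floor of 3 counts, so its fold is uncertain. The log2 fold change of Hoxc6 ranged from 2.13 to 3.01 without 1 library. Neither Hoxc8 nor Hoxc6 was detected in any het library at day 2. Hoxb9 had 12.97, 7.79 and 10.9 CPM at day 2.5 and 28.98, 21.4 and 26.6 CPM at day 3 (log2 fold change 1.24, SE 0.19, adjusted p 0.000684). Hoxb8 rose from 6.58, 4.39 and 5.47 to 13.97, 8.89 and 9.47 CPM (adjusted p 0.00955). Hoxd1 rose from 2.21, 2.77 and 2.66 to 4.26, 4.28 and 4.79 CPM (adjusted p 0.0327), a call that was lost in each of the 6 fits without 1 library, from 0.0512 without day 2.5 of line 3 to 0.116 without day 3 of line 3. By contrast, Hoxb1 had 46.9, 49.5 and 50.5 CPM at day 2.5 and 72.03, 33.1 and 42.9 CPM at day 3 (log2 fold change -0.03, SE 0.21, adjusted p 0.940) and Hoxb4 had 6.97, 4.13 and 3.65 CPM at day 2.5 and 3.75, 4.37 and 3.55 CPM at day 3 (log2 fold change -0.37, SE 0.28, adjusted p 0.339), with overlap between the days in both.

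Per length of transcript, in the authors' log2 RPKM, Hoxb1 was the highest gene of clusters B, C and D at both days, at 4.30, 4.41 and 4.45 and then 4.96, 3.82 and 4.20. At day 2.5, Hoxb2 (2.58, 2.30 and 2.37) lay above Hoxb9 (2.30, 1.59 and 2.08). At day 3, Hoxb9 (3.49, 3.04 and 3.37) lay above Hoxb2 (2.80, 1.86 and 2.03) without overlap. At day 2.5, line 1 of Hoxb9 was almost level with line 2 of Hoxb2. Hoxc8 moved from -1.80, -2.96 and -1.14 to 1.90, 0.16 and 1.14 on the same scale, where the day 3 values of line 2 lay lowest.

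**Figure D4:**
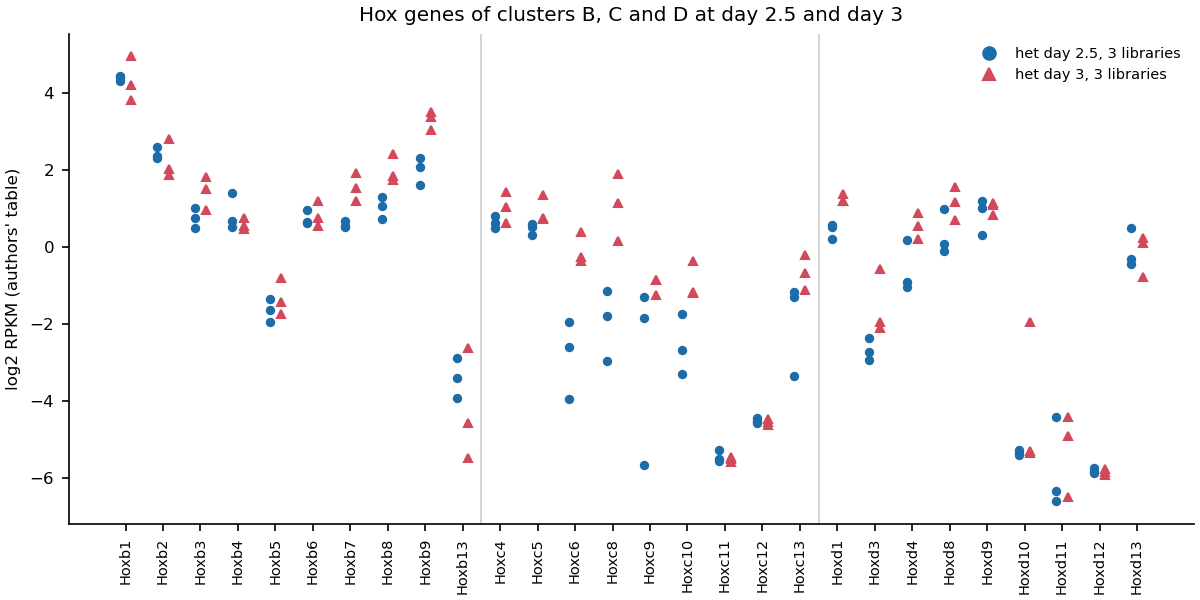
Log2 RPKM of the Hox genes of clusters B, C and D in the authors' table, with circles for the 3 het libraries of day 2.5 and triangles for those of day 3. Hoxb7, Hoxb8, Hoxb9, Hoxc6 and Hoxc8 lie higher at day 3 without overlap, and Hoxb1, Hoxb2 and Hoxb4 overlap. Hoxd1, Hoxd3, Hoxd4, Hoxc5, Hoxc9, Hoxc10 and Hoxc13 also lie higher without overlap, and Hoxb6, Hoxd8 and Hoxd9 overlap. In CPM, the days do not overlap for 16 of 31 tested Hox genes and for 44.6% of all genes tested.

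Called core and formative pluripotency factors mostly fell. In the core and formative group, 7 of 16 tested genes fell and 3 rose (median log2 fold change -0.23), and in the naive group 2 of 13 fell and 1 rose (median -0.15). The falling share was 43.8% in the core group and 15.4% in the naive group, beside 16.0% of all genes. Pou5f1, a core factor, had 642, 664 and 599 CPM at day 2.5 and 270.1, 347 and 266 CPM at day 3 (log2 fold change -1.15, SE 0.11, adjusted p 6.90e-05). The RNA-binding protein gene L1td1 had 339.7, 339.7 and 395 CPM at day 2.5 and 151, 189 and 173 CPM at day 3 (log2 fold change -1.10, SE 0.10, adjusted p 5.45e-05), and the zinc finger gene Zscan10 had 58.1, 59.4 and 57.1 CPM at day 2.5 and 23.7, 30.6 and 27.03 CPM at day 3 (log2 fold change -1.14, SE 0.11, adjusted p 6.69e-05). Dnmt3b, the DNA methyltransferase of the formative state, fell from 334, 367 and 414 to 175, 239.5 and 200.5 CPM (adjusted p 0.000331), after 1228 ± 38.2 CPM at day 2 (SD, n = 3). Nanog had 45.2, 55.2 and 67.1 CPM at day 2.5 and 47.7, 86.4 and 50.8 CPM at day 3 and overlapped between the days (adjusted p 0.731). Tfcp2l1, a naive factor, rose from 15.3, 17.1 and 19.7 to 25.3, 32.5 and 28.1 CPM. Without day 3 of line 2, where Nanog was highest, 5 naive genes fell, without day 3 of line 3 1 fell, and with the line as a block 4 fell. Rises in the core group numbered 1 without day 2.5 of line 1 or day 3 of line 3.

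Neural factors gave no uniform direction. Of 14 tested genes, 4 rose and 2 fell, with a median of 0.30. The rising share was 28.6% beside 13.8% of all genes, and the falling share of 14.3% was below the 16.0% of all genes. Nes, the intermediate filament gene nestin, had 39.5, 34.3 and 42.1 CPM at day 2.5 and 137, 60.2 and 92.8 CPM at day 3 (log2 fold change 1.29, SE 0.22, adjusted p 0.00169). Sox1, the early neural plate factor, rose from 1.43, 1.15 and 1.97 to 3.96, 2.54 and 3.01 CPM (adjusted p 0.0351). Its call was lost without line 1 at day 2.5 (0.0878) or day 3 (0.126), line 2 at day 2.5 (0.111) or line 3 at day 3 (0.0844). Pax6 had 0.540, 1.10 and 0.395 CPM at day 2.5 and 1.80, 1.03 and 0.0987 CPM at day 3 (adjusted p 0.658), and Irx3 had 2.06, 1.36 and 1.43 CPM at day 2.5 and 3.08, 2.54 and 1.73 CPM at day 3 (adjusted p 0.249). The ventral neural factor Olig2 fell from 4.91, 6.85 and 7.45 to 1.90, 3.06 and 4.29 CPM (adjusted p 0.0175), which was lost without day 2.5 of line 2 (0.0522) or of line 3 (0.0623). The number of falling neural genes was 0 without either of these libraries, and of rising ones 2 without line 1 or 2 at day 2.5 or line 2 or 3 at day 3.

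By the same rule, with at least 50 counts at day 2.5, the deepest falls belonged mainly to genes outside the developmental lists. The hormone precursor gene Trh had 192, 188 and 188 CPM at day 2.5 and 20.9, 35.5 and 18.3 CPM at day 3 (log2 fold change -2.96, SE 0.19, adjusted p 1.42e-05), so that the 3 lines fell 7.78-fold on average. Pim2, a kinase gene with the smallest adjusted p of all falling protein-coding genes named here, had 237, 208 and 249 CPM at day 2.5 and 57.6, 70.3 and 60.8 CPM at day 3 (log2 fold change -1.91, SE 0.10, adjusted p 6.45e-06). Btla, which encodes an inhibitory receptor of lymphocytes, had 51.2, 48.6 and 61.8 CPM at day 2.5 and 9.71, 8.84 and 4.59 CPM at day 3 (log2 fold change -2.84, SE 0.22, adjusted p 3.47e-05), and Nlrc4, an inflammasome component, had 13.9, 14.9 and 13.96 CPM at day 2.5 and 1.90, 1.74 and 1.82 CPM at day 3 (log2 fold change -3.00, SE 0.18, adjusted p 1.01e-05). These genes were picked by size or adjusted p among genes whose days did not overlap.

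Serpina3m, a protease inhibitor gene of a multigene cluster that overlaps Serpina3k, had 28.6, 34.4 and 35.9 CPM at day 2.5 and 3.96, 5.22 and 5.33 CPM at day 3 (log2 fold change -2.80, SE 0.16, adjusted p 6.61e-06). Sidt1, a transmembrane protein gene, fell from 3.10, 7.06 and 7.15 to 0.308, 0.376 and 0.296 CPM, and the phospholipid phosphatase gene Plpp4 from 5.06, 3.56 and 5.38 to 0.411, 0.0940 and 0.444 CPM. Both had been at or under 0.210 CPM at day 2. The sodium pump subunit gene Atp1a4 fell from 2.85, 2.46 and 2.56 to 0.103, 0.329 and 0 CPM, and Mup6, of the major urinary protein family, from 3.49, 2.67 and 3.60 to 0.668, 0 and 0.641 CPM, with fewer than 100 counts in every library for each. Epp13 fell from 22.3, 21.3 and 22.6 to 5.80, 4.56 and 4.34 CPM (adjusted p 2.52e-05).

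Called genes of glucose use and of the hypoxia response mostly rose. Of 18 tested genes of glucose uptake and glycolysis, 7 rose and 1 fell, with a median log2 fold change of 0.16. The rising share was 38.9% beside 13.8% of all genes. The glucose transporter gene Slc2a3 had 1763, 2010.0 and 2033 CPM at day 2.5 and 3849, 4518 and 4438 CPM at day 3 (log2 fold change 1.10, SE 0.10, adjusted p 5.15e-05), and the hexokinase gene Hk1 rose from 23.6, 30.6 and 26.9 to 38.7, 44.7 and 45.7 CPM. Pdk1, a kinase that holds back pyruvate oxidation, fell from 436, 552 and 601 to 245, 383 and 296 CPM. Rises in this list numbered 3 without day 2.5 of line 1 and without day 3 of line 2, 4 without day 2.5 of line 2 and without day 3 of line 3, and 9 without day 2.5 of line 3. Of 13 tested hypoxia response genes, 7 rose and 1 fell (median 0.51), so that 53.8% rose beside 13.8% of all genes. In this list, the stress-induced gene Ndrg1 had 40.8, 46.8 and 43.5 CPM at day 2.5 and 73.9, 119.9 and 102 CPM at day 3 (log2 fold change 1.14, SE 0.15, adjusted p 0.000313). Bnip3, a mitochondrial protein gene, rose from 248, 262 and 269 to 342, 419.8 and 394 CPM, and the collagen hydroxylase gene P4ha2 fell from 76.1, 90.6 and 69 to 38.6, 45.8 and 48.04 CPM.

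Called cadherins and factors of the epithelial to mesenchymal transition rose, with 8 of 15 higher (53.3%, beside 13.8% of all genes) and none lower (median 0.48). Fn1, fibronectin, had 226, 188 and 186 CPM at day 2.5 and 388, 335 and 337 CPM at day 3 (log2 fold change 0.79, SE 0.10, adjusted p 0.000270). The epithelial genes Cldn6, a tight junction protein, and Esrp1, an epithelial splicing factor, rose from 73.04, 80.5 and 80.4 to 108, 134 and 168 CPM and from 44.6, 43.7 and 47.5 to 61.6, 70.5 and 62.4 CPM. Rises numbered 5 without line 1 at either day.

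Of 17 tested p53 pathway genes, 6 fell and 3 rose (median -0.19), a falling share of 35.3% beside 16.0% of all genes. Cdkn1a, the cell cycle inhibitor p21, had 192, 178 and 197 CPM at day 2.5 and 116, 116 and 121 CPM at day 3 (log2 fold change -0.72, SE 0.08, adjusted p 0.000115), and the stress gene Sesn2 had 177, 165 and 201 CPM at day 2.5 and 88.7, 103 and 116 CPM at day 3 (log2 fold change -0.85, SE 0.11, adjusted p 0.000281). Of 22 cell cycle genes, 6 rose and 3 fell (median 0.01), with 27.3% rising beside 13.8% of all genes and 13.6% falling, below the 16.0% of all genes. Cyclin E1 (Ccne1) had 150.2, 133 and 157 CPM at day 2.5 and 82.7, 79.1 and 75.9 CPM at day 3 (log2 fold change -0.92, SE 0.09, adjusted p 6.58e-05), and Cdkn1b, a further inhibitor, had 29.5, 30.8 and 29 CPM at day 2.5 and 46.7, 55.6 and 56.3 CPM at day 3 (log2 fold change 0.79, SE 0.10, adjusted p 0.000298). Cholesterol synthesis genes showed 2 rises and 6 falls of 24 (median -0.03), with 3 to 5 falls and 1 to 5 rises without 1 library. In 1 fit of all 24 libraries, 1 of these genes rose and 2 fell. Polycomb genes showed 4 rises and 3 falls of 28 (median -0.03), with 2 rises and 1 fall without day 2.5 of line 1, and their called share of 25.0% was below the 29.8% of all genes. Among them, Phf19 rose from 4.03, 3.24 and 3.30 to 6.37, 7.95 and 8.78 CPM and Epop fell from 105, 107 and 112 to 65.9, 70.5 and 70.9 CPM. Nodal pathway genes gave 1 rise and 3 falls of 12 (median -0.19), immediate early genes 3 rises and 4 falls of 14 (median 0.08), and mitochondrially encoded genes no rise and 2 falls of 12 (median -0.04). Without 1 library, the rises were 0 to 3 in the Nodal list and 1 to 4 in the immediate early list, and the falls were 0 to 3 in the mitochondrial list. With library totals as the only scaling, 4 Nodal genes rose and 3 fell. In the immediate early list, 21.4% rose and 28.6% fell, beside 13.8% and 16.0% of all genes. The called shares of the cholesterol and Nodal lists (33.3% each) were near the 29.8% of all genes, and that of the mitochondrial list (16.7%) was below it.

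Markers of other cell types were measured beside these results. The summed level of 24 endoderm markers was 5776, 7447 and 5062 CPM at day 2.5 and 3704, 5875 and 6038 CPM at day 3. Of 19 tested, 5 fell and none rose (median -0.21). Lama1, a laminin chain, had 1569, 1906 and 1351 CPM at day 2.5 and 743, 1125 and 1204 CPM at day 3 (adjusted p 0.0103), while Sox17 had 18.5, 22.4 and 13.5 CPM at day 2.5 and 12.4, 18.2 and 28.9 CPM at day 3 (adjusted p 0.828). The number of falling endoderm markers was 1 without line 2 at day 2.5 or without line 1 at day 3, 2 without line 1 at day 2.5, and none in 1 fit of all 24 libraries. Line 1, which had the highest mesodermal sum at day 3, had the lowest endoderm sum there, and the part of this difference in the mesodermal results was not tested.

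Trophoblast markers gave 1 rise and 2 falls of 12, with Eomes among the falls, and a summed level of 525, 498 and 452 CPM at day 2.5 and 561, 487 and 612 CPM at day 3. Its rises numbered 0 without day 3 of line 3 and 2 without day 2.5 of line 2, and its falls 1 without day 2.5 of line 1 or day 3 of line 2 or 3. Lateral, cardiac and blood markers gave no rise and 3 falls of 10, with a sum of 145, 181 and 128 CPM at day 2.5 and 101, 148 and 131 CPM at day 3. The blood factor Lmo2 fell from 21.6, 21.03 and 24.8 to 9.97, 7.67 and 6.96 CPM (adjusted p 0.000132). Falling lateral markers numbered 1 without day 2.5 of line 2, day 3 of line 1 or day 3 of line 3. Neural crest and surface ectoderm markers, with 4 of 12 tested, gave 1 rise, which held in 1 of the 6 fits without 1 library, and a summed level of 22.6 to 29.2 CPM over the 6 libraries. The called shares of these 4 lists were 25.0% to 30.0%, near or below the 29.8% of all genes. All calls were falls among endoderm markers (26.3%) and lateral, cardiac and blood markers (30.0%), beside 16.0% of all genes falling. No marker of them was at 0 in all 6 libraries.

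The same step in the wt lines gave 2923 called genes of 15292 tested (19.1%), with 1374 higher and 1549 lower. Its smallest library held 7.10 M counts. With the line as a block, 4687 wt genes were called. Without 1 library the wt count was 1574 (day 2.5 of line 2), 1352 (day 3 of line 2) or 1281 (day 3 of line 3). Of 2349 genes called in both genotypes, all moved in the same direction. They were 50.7% of the het calls tested in wt and 80.8% of the wt calls tested in het. Of the 2287 genes called in het and not in wt, 2207 had the same direction in wt. Across 15118 genes tested in both, the fold changes correlated at 0.75 (Pearson) and 0.75 (Spearman), as a description over genes that are not independent.

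**Figure D5:**
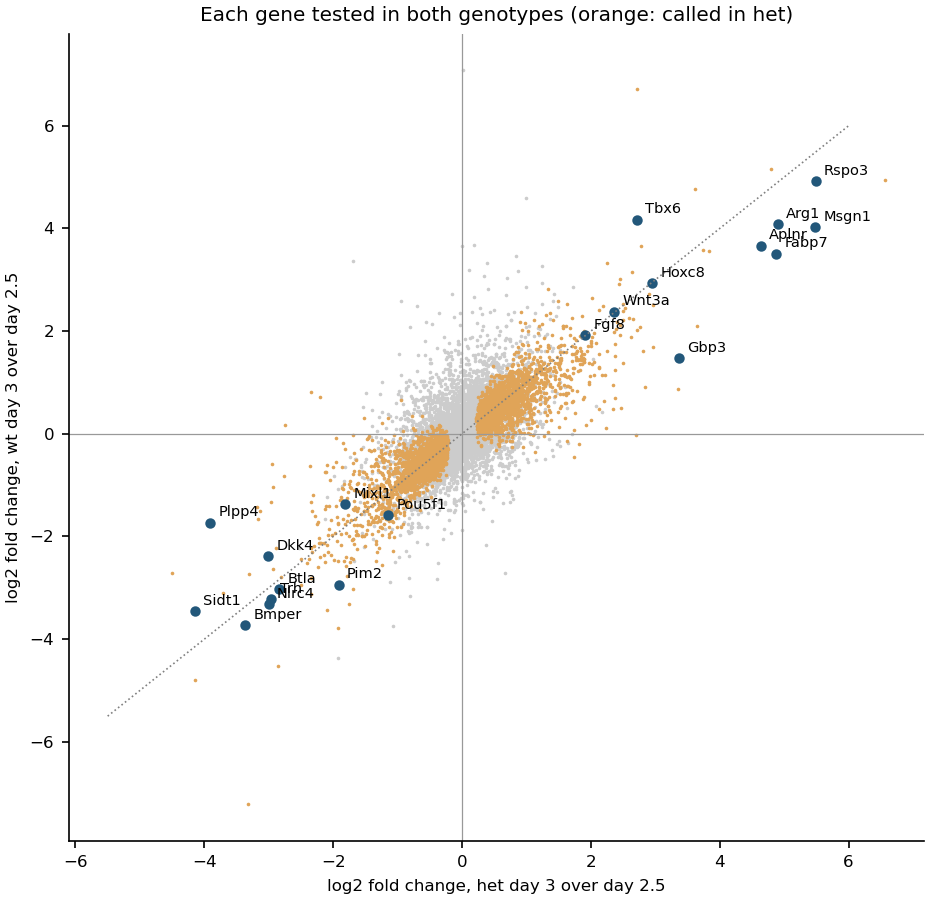
Log2 fold change from day 2.5 to day 3 in the het lines (horizontal) and the wt lines (vertical) for each gene tested in both, with genes called in het in orange and 20 genes named. The dotted line marks equal change. Rspo3, Msgn1 and Arg1 lie at the upper right and Sidt1, Bmper and Trh at the lower left.

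No gene was shown to change differently between the genotypes. edgeR's interaction test called 0 of 16486 genes (0%). Before adjustment, 635 had a p under 0.05, and the smallest adjusted p was 0.999. DESeq2 called 0, edgeR's likelihood ratio test called 6, the fit with no filter beyond 1 count called 23, and the fit without day 3 of wt line 3 called 1. The 26 leading genes by fold or adjusted p in het all moved the same way in wt, and 24 of them were called there. The difference between genotypes (het minus wt, log2) was 0.58 (SE 0.80) for Rspo3, -0.60 (SE 0.35) for Dkk4 and -1.45 (SE 0.93) for Tbx6. It was -2.15 (SE 0.67) for Plpp4, 1.04 (SE 0.30) for Pim2, 0.74 (SE 0.22) for Tapbp and -0.87 (SE 0.29) for Hoxb9, none of which passed the adjustment. The power of the interaction test was not measured.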

How the data were processed

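Male mESC lines were sampled as poly(A) RNA. Per the study's methods, the authors trimmed single-end reads with Trim Galore 0.4.4, aligned them with HISAT2 2.0.5 to GRCm38.p6 and quantified genes in SeqMonk. The deposited raw counts per gene were used as they are. The deposited log2 RPKM values of Hox genes, scaled by the authors, were used for levels per length only. Whether a library was stranded is not given in the sources used here, so overlapping genes on either strand may share reads. The 8 columns of group means in the count table were not used. All library columns were matched to labels.

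Counts were analysed with edgeR 4.0.16 in R 4.3.3 (TMM, filterByExpr by group, quasi-likelihood test, Benjamini-Hochberg adjusted p under 0.05) on the 6 het libraries, on the 6 wt libraries, and on the 12 together for the interaction. Intervals and floors (3 counts) cover counting error only, because reads are not independent molecules. In simulated libraries of the het depths with 200 changed genes, the test called 34 of 67 genes changed 1.5-fold, 56 of 67 changed 2-fold and 66 of 66 changed 4-fold, with 6 others. A line number marks the same cell line on both days, so the numbers pair the libraries. Deviations of the same line correlated at 0.03, 0.15 and -0.05 between the days in het and at 0.21, 0.04 and 0.03 in wt. Deviations of different lines correlated at -0.18 to 0.15 in het and at -0.14 to 0.09 in wt. The line was fitted as a block in an alternative.

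Genes named were a fixed set of marker and Hox genes, the 10 largest rises and falls and the 5 smallest adjusted p in each direction among called protein-coding genes with no overlap and a mean of at least 50 counts on the day when the gene was higher, and up to 4 called members of each list in each direction. Other genes named were chosen after their values were seen. The comparison, the lists and the tests were chosen with earlier results of these data known. Alternatives were DESeq2 1.42.0 size factors and Wald test, library totals, other filters, the likelihood ratio test, 1 fit of all 24 libraries, the line block, thinned counts (seed 7), glmTreat, and fits without each library. The p values measure the spread between lines. Annotation was GENCODE vM21, whose coordinates were the same for 99.5% of matched genes, and promoter windows were RefSeq's. Figures were drawn with matplotlib 3.10.9. The HoxA genes are given as counts only.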

Additional observations from a re-analysis of the deposited data

How the results depend on the processing

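The number of called genes in het moved by less than 1.5 times under both scalings, both filters, DESeq2, the likelihood ratio test, the fit of all 24 libraries, the line block (4876) and thinned counts. It was 402 (210 higher, 192 lower) when a change of over 1.5-fold was tested, which asks for a larger change by construction. Without 1 library it ranged from 3014 to 4229, with 1388 to 2155 higher and 1626 to 2215 lower. The wt count was 4687 with the line as a block, 230 for a change of over 1.5-fold, and 1281 to 2721 without 1 library. The interaction count of 0 became 23 with no filter beyond 1 count and 6 by the likelihood ratio test, and was 0 to 1 without 1 library. The cause was not tested. Of 168 named genes, 28 lost their call in the fit of all 24 libraries and 98 in the test of over 1.5-fold. The 28 included Msx1 (adjusted p 0.0862), Fgf10 (0.0565), Stra6 (0.0520), Sox1 (0.0684) and Hoxd1 (0.338). Over the 6 fits that leave out 1 library each, 126 calls of the 168 genes were lost, 7 were gained and 6 directions were reversed. Among the 168 genes, the block ended the call of Apob (adjusted p 0.0545), gave one to T, Nkx1-2 and Cdx2, and changed no other. Over whole lists it moved further calls, such as Hox rises from 9 to 12 and cadherin rises from 8 to 10. Hoxb1, which was not called, had 0.0039 with library totals and 0.0024 with no filter on the log2 scale. Without 1 library, the log2 change of Hoxb1 ranged from -0.40 to 0.19, of Nanog from -0.22 to 0.29 and of Aldh1a2 from -0.36 to 0.67. Depth limits genes near 3 counts in a library, such as Msgn1 at day 2.5.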

Other observations

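Genes of antigen presentation and interferon-inducible genes were among the rises, and the list was put together after their values were seen, so it was given no test. The cells were given no interferon that the labels name. Of 34 genes, 28 had enough counts to be tested, and 15 of them (53.6%) were called higher and none lower, beside 13.8% and 16.0% of all genes. With the line as a block, 15 were higher and 1 lower. B2m, the light chain of MHC class I, had 15.7, 16.3 and 19.04 CPM at day 2.5 and 45.7, 42.4 and 42.1 CPM at day 3 (log2 fold change 1.31, SE 0.11, adjusted p 4.10e-05). Gbp2, a guanylate-binding protein gene, had 4.47, 3.98 and 2.81 CPM at day 2.5 and 19.6, 17.2 and 15.2 CPM at day 3 (log2 fold change 2.17, SE 0.20, adjusted p 6.35e-05), and Irgm2, a GTPase gene that overlaps Igtp, had 0.982, 1.25 and 1.18 CPM at day 2.5 and 8.32, 7.67 and 7.99 CPM at day 3 (log2 fold change 2.77, SE 0.24, adjusted p 4.68e-05). The immunoproteasome gene Psmb8 went from 1.28, 0.889 and 1.43 to 5.86, 4.94 and 3.75 CPM, and the transcription factor gene Irf1 from 17.7, 14.1 and 18.2 to 46.5, 37.6 and 41.7 CPM. The summed level of the list was 271, 274 and 259 CPM at day 2.5 and 469.5, 457 and 466 CPM at day 3, so the 3 lines lay close together at each day. In wt, the log2 changes were 1.06 for B2m, 1.14 for Gbp2, 2.09 for Irgm2, 0.96 for Psmb8 and 0.60 for Irf1.

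The core of the interferon response element, searched as GAAANNGAAA on both strands in the 250 bases before RefSeq start sites (GRCm38.p6), occurs for 3.46% of 27025 genes with a window. It occurs in 15 of the 27 genes of the list that have one, and in 7 of the 14 called higher. It occurs in 3.25% of all rising and 2.75% of all falling genes with a window. The windows of B2m, Gbp2, Gbp3 and Gbp7 are printed to show where the match lies, 5′ to 3′ on the gene's strand, with the match in capitals.
B2m (chr2:122147437-122147686, plus strand): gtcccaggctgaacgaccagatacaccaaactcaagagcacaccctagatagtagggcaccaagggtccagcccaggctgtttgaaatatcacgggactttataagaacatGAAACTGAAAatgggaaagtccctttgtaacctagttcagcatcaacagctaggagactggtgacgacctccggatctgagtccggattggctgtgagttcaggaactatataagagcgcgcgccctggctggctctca
Gbp2 (chr3:142620413-142620662, plus strand): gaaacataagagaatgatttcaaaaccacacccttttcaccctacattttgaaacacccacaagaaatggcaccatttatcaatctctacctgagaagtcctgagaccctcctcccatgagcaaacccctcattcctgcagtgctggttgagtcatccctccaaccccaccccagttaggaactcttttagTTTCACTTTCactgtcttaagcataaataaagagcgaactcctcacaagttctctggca
Gbp3 (chr3:142559794-142560043, plus strand): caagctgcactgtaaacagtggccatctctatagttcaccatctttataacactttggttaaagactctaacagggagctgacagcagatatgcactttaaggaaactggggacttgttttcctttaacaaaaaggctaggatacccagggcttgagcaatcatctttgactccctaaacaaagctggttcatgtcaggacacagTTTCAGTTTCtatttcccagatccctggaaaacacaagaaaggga
Gbp7 (chr3:142530086-142530335, plus strand): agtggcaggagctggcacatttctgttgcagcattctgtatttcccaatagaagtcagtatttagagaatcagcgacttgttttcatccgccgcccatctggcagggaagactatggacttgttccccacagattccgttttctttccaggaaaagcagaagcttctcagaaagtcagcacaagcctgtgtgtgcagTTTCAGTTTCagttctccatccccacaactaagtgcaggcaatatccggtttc
In Gbp2, Gbp3 and Gbp7, genes of 1 cluster on chromosome 3, the match began 59, 45 and 53 bases before the start, and in B2m 139 bases before it. The match shows no binding of a factor.

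Several genes that fell in the later 12 h had been at 0 or near it before Wnt activation. The mean levels at day 2, day 2.5 and day 3 were 0, 85.2 and 10.8 CPM for Dkk4. They were 1.13, 53.9 and 7.71 CPM for Btla and 0, 5.77 and 0.327 CPM for Sidt1. Others ran the opposite way, with 169.9, 4.44 and 24.2 CPM for Fgf4, and 2567, 1936 and 4268 CPM for Slc2a3. These are descriptions of the levels, since day 2.5 enters both steps.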
